A study of Mus musculus with 18 samples.

Results

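Ptgds and Ttr encode secreted proteins that carry small lipophilic molecules. They are 2 of 8841 genes named on these arrays, each measured by 1 probe (45 and 6871) of 10500 probes in all. Both were chosen by their submandibular intensity, which was much higher with testosterone than with placebo. That submandibular difference is given below as a description, with no test. The other glands and the comparisons between them were not used to choose them.

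RNA of 3 exocrine glands of orchiectomised male BALB/c mice was hybridised to 18 1-colour arrays. The lacrimal gland supplies the aqueous layer of tears, the meibomian gland secretes lipid onto the lid margin, and the submandibular gland makes saliva. The 6 groups were placebo lacrimal, testosterone lacrimal, placebo meibomian, testosterone meibomian, placebo submandibular and testosterone submandibular. Every mouse had been castrated and carried a hormone pellet, with or without testosterone, for 21 days, so the placebo groups are androgen-deprived males and no intact male was compared. Pellet dose and the age of the mice are not given in the sources used here. Each group had 3 pools, A, B and C, each of 10 glands from 5 animals per the labels, although the labels also mention 4 animals per sex and experiment. The p-values measure the spread between these pools.

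Ptgds encodes lipocalin-type prostaglandin D synthase, a secreted enzyme that turns prostaglandin H2 into prostaglandin D2. It is also a lipocalin, a small barrel-shaped protein that holds lipophilic molecules such as retinoids, bilirubin and thyroid hormone. Ttr encodes transthyretin, which carries thyroxine in plasma and cerebrospinal fluid and binds retinol through retinol-binding protein. The liver and the choroid plexus are its main sources, and pancreatic islets make it as well. The leptomeninges and the male genital tract are known sources of Ptgds.

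The deposited values are probe intensities with array medians of 0.929 to 0.952. With 3 pools per group the number of arrays limits the precision. No detection calls come with the values. The lowest part of each array differed between glands: lacrimal arrays had a 10th percentile of 0.211 to 0.316, submandibular arrays one of 0.211 to 0.243 and meibomian arrays one of 0.0514 to 0.0741. The highest value was 597 to 1042, 636 to 743 and 135 to 219 in the same order. Levels of 1 gene in different glands were therefore also read by their percentile among all probes of the same array. The gland labels were checked against markers chosen with their values known. Elovl3, which elongates the fatty acids of sebum, stood at 102 ± 2.87 in placebo meibomian pools and 0.432 ± 0.0668 in placebo lacrimal pools (SD, n = 3). Egf, a product of submandibular granular tubules, measured 35.2 ± 2.53 in placebo submandibular pools and 3.49 ± 1.35 in placebo lacrimal pools (SD, n = 3). Ltf, the tear protein lactoferrin, measured 79.4 ± 4.29 in placebo lacrimal pools and 0.511 ± 0.233 in placebo submandibular pools (SD, n = 3).

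Ptgds was faint in the submandibular gland of placebo mice and among the brightest probes with testosterone. Placebo pools A, B and C had intensities of 0.456, 0.417 and 0.551, and testosterone pools A, B and C had 47.9, 32.2 and 42.6. The lowest testosterone pool lay far above the highest placebo pool. The probe moved from percentiles 30.5 to 38.2 of the array to percentiles 95.5 to 96.8. The mean went from 0.475 ± 0.0688 to 40.9 ± 8.03 (SD, n = 3). No fold is given because all placebo pools lay below the level used to filter dim probes. On the scale of log2(intensity + 0.174) the difference was 5.97 ± 0.18 (SE), which ranked 1 among 7463 tested probes in this gland. The offset shapes this size: it was 6.29 with an offset 4-fold smaller and 5.13 with an offset 4-fold larger.

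Ttr followed the same direction in this gland. Placebo pools A, B and C gave 0.921, 1.04 and 0.967, close to the array median, and testosterone pools A, B and C gave 9.88, 7.56 and 9.26. The groups did not overlap, and the percentile on the array went from between 49.6 and 51.8 to between 85.1 and 87.5. The mean went from 0.974 ± 0.0577 to 8.90 ± 1.20 (SD, n = 3), a ratio of 9.13. The log2 difference was 2.97 ± 0.17 (SE), rank 13 of 7463.

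**Figure D1:**
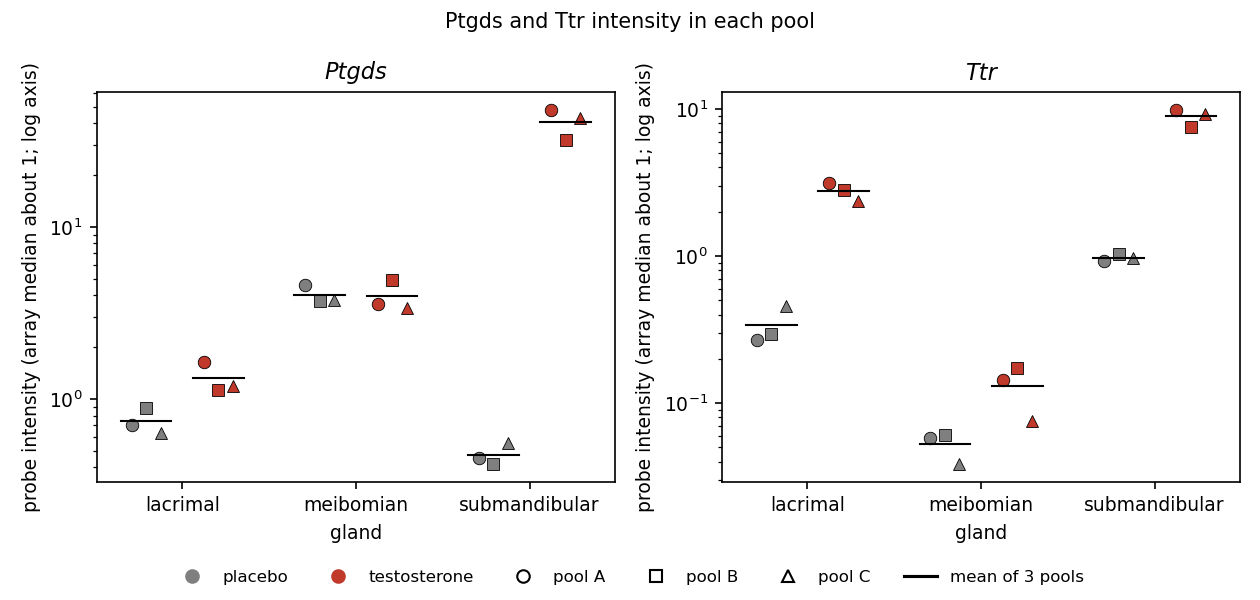
Probe intensity on a log axis (array medians near 1) of Ptgds and Ttr in each of the 18 pools, by gland. Grey marks are placebo, red marks testosterone, the shape gives the pool and the line the mean of 3 pools. In the submandibular gland Ptgds lies at 0.417 to 0.551 with placebo and at 32.2 to 47.9 with testosterone, and in the lacrimal gland Ttr lies at 0.271 to 0.459 and at 2.35 to 3.14.

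The only regulatory sequence shown is the stretch just before the Ptgds start, because this gene had the largest submandibular difference. It is given 5′ to 3′ from RefSeq promoter windows (build GRCm38.p6, chr2:25469750-25469999, minus strand, 250 bases ending at the base before the annotated start). The capitals mark an AP-1 like TGACTCA at -35 to -29 and a TATA-like ATAAATA at -29 to -23, which share 1 base.
Ptgds: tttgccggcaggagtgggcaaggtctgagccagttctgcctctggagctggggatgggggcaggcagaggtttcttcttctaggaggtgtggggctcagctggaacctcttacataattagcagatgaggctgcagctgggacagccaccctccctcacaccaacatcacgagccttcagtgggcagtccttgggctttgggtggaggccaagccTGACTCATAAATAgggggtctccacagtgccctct

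Both capitalised motifs were picked after the sequence had been read. Searched on both strands, TGACTCA is held by 4.46% and ATAAATA by 5.17% of 32851 promoter windows of the same length. The E-box CANNTG, a basic helix-loop-helix site, matched 3 times, and 66.2% of windows hold at least 1. The androgen and glucocorticoid receptor half-site TGTTCT, held by 16.1% of windows, had 0 matches. The nuclear receptor half-site AGGTCA (14.0% of windows) and the SOX core AACAAT (9.42% of windows) also had 0 matches. These letters are absent from this window only, and a match is a description of sequence, not a site.

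In the lacrimal gland both genes rose with testosterone, Ttr by 2.52 and Ptgds by 0.69 on the log2 scale. For Ttr, placebo pools A, B and C gave 0.271, 0.294 and 0.459, and testosterone pools A, B and C gave 3.14, 2.81 and 2.35. Every testosterone pool lay above every placebo pool, and the percentile on the array went from between 6.02 and 27.0 to between 65.8 and 71.2. Placebo pools had a mean of 0.341 ± 0.103, testosterone pools one of 2.77 ± 0.396 (SD, n = 3), and no fold is given because all placebo pools lay below the filter level. The log2 difference was 2.52 ± 0.17 (SE), with a 95% interval of 2.17 to 2.87 and an adjusted p of 4.96e-09 in limma. It ranked 105 of 7463 from the highest, in a gland where 28.1% of tested probes were called, 13.3% higher and 14.8% lower. Placebo pools A and B lay below the 10th percentile of their arrays. With values under that percentile raised to it, a setting chosen after seeing the data, the difference was 2.45 and adjusted p = 2.65e-09 in limma.

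The lacrimal change of Ptgds was small. Intensities were 0.709, 0.884 and 0.637 for placebo pools A, B and C. Testosterone pools A, B and C gave 1.63, 1.12 and 1.19. The groups did not overlap, but the gap between the highest placebo and the lowest testosterone pool was narrow. Placebo pools had a mean of 0.743 ± 0.127, testosterone pools one of 1.32 ± 0.276 (SD, n = 3), a ratio of 1.77. The log2 difference was 0.69 ± 0.18 (SE, 95% interval 0.30 to 1.08, adjusted p = 0.00971 in limma), rank 654 of 7463. The call ended when arrays were weighted by quality in limma (0.56, adjusted p = 0.0581).

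The filter on dim probes did not decide these lacrimal calls. A probe was tested if it exceeded the 40th percentile of its array on at least 3 of 18 arrays. Ptgds did so on 14 arrays, 9 of them outside the lacrimal gland, and Ttr on 9 arrays, 6 of them outside the lacrimal gland. For Ttr those 6 were the submandibular arrays, whose values chose the genes, and the other 3 were the testosterone lacrimal arrays. These counts are therefore no support for the Ttr call. With no filter on dim probes both lacrimal calls held (adjusted p = 0.0121 for Ptgds and 3.55e-09 for Ttr in limma).

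In the meibomian gland Ptgds was well expressed and differed little between treatments. Intensities were 4.57, 3.68 and 3.75 for placebo pools A, B and C. Testosterone pools A, B and C gave 3.56, 4.90 and 3.36. The groups overlapped, and all 6 pools lay between percentiles 72.9 and 78.4 of their arrays. Placebo pools had a mean of 4.00 ± 0.497, testosterone pools one of 3.94 ± 0.838 (SD, n = 3). The log2 difference was -0.03 ± 0.18 (SE, adjusted p = 0.958 in limma) with a 95% interval of -0.43 to 0.36. Its sign turned with array weights (0.18) and without placebo pool A (0.06), testosterone pool A (0.03) or testosterone pool C (0.07).

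Ttr lay at the low end of every meibomian array. Placebo pools A, B and C gave 0.0583, 0.0611 and 0.0385, and testosterone pools A, B and C gave 0.144, 0.173 and 0.0761. The pools did not overlap, yet all lay between percentiles 5.81 and 23.1 of their arrays, below the level used to filter dim probes. The log2 difference was 0.42 ± 0.17 (SE, 95% interval 0.07 to 0.77) and was not called (adjusted p = 0.286 in limma), where 0.59% of tested probes were called in this gland, 0.469% higher and 0.121% lower. It was called with array weights (0.56, adjusted p = 0.000293), a setting under which 2661 probes were called in place of 44. The missing call does not show that Ttr was unchanged there. No fold is given at this level.

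**Figure D2:**
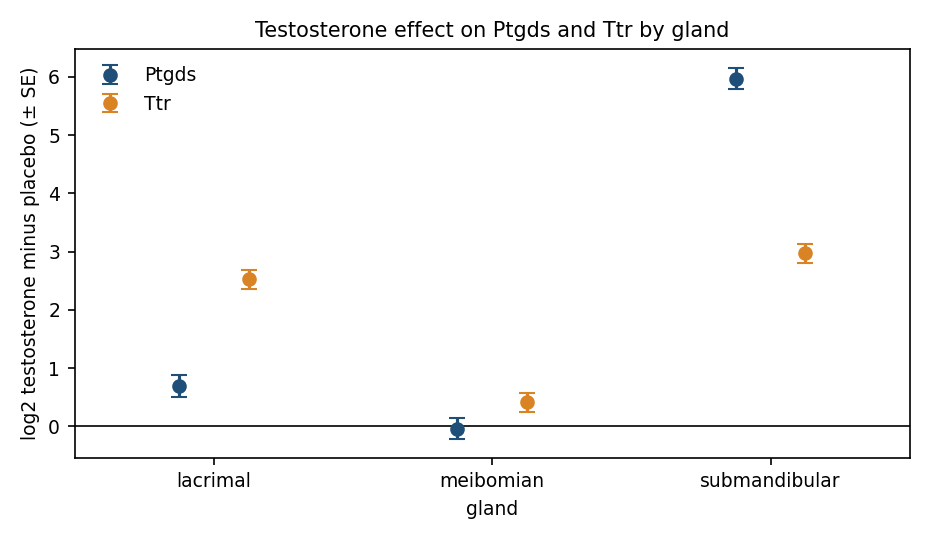
Log2 difference in intensity, testosterone minus placebo, for Ptgds (blue) and Ttr (orange) in each gland; points are estimates from limma over 3 pools per group and bars are ± 1 SE. Ptgds stands at 5.97 in the submandibular gland, 0.69 in the lacrimal and -0.03 in the meibomian gland. Ttr stands at 2.97, 2.52 and 0.42 in the same order. The submandibular values chose the genes. Meibomian Ttr lay below the offset, and its difference was 0.83 and 0.14 with the offset 4-fold smaller and larger.

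The effect of testosterone on Ttr differed between the lacrimal and the meibomian gland. The lacrimal effect minus the meibomian effect was 2.11 ± 0.23 (SE, 95% interval 1.61 to 2.60, adjusted p = 6.58e-06 in limma), and 17.6% of tested probes were called in this comparison, 6.99% with a higher and 10.6% with a lower lacrimal effect. For Ptgds the same difference was 0.73 ± 0.26 (95% interval 0.18 to 1.28) and was not called (adjusted p = 0.0657 in limma). It moved both ways with the processing, down to 0.37 with array weights (adjusted p = 0.263) and 0.51 with the offset 4-fold larger (adjusted p = 0.127). It was called with quantile normalization over all arrays (0.85, adjusted p = 0.0368) or within glands (0.79, adjusted p = 0.0458), and without meibomian testosterone pool B (0.89, adjusted p = 0.0321). Submandibular effects were set beside these without a test, since they chose the genes. For Ttr the lacrimal and submandibular differences were 2.52 ± 0.17 and 2.97 ± 0.17 (SE), and for Ptgds 0.69 ± 0.18 and 5.97 ± 0.18 (SE).

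Among placebo groups Ptgds was lower in the lacrimal than in the meibomian gland, while the position of Ttr between these glands depended on the normalization. Ptgds was highest in the meibomian gland, at a mean of 4.00, followed by the lacrimal (0.743) and the submandibular gland (0.475), and none of these placebo groups overlapped, although the submandibular values belong to the contrast that chose the genes. The lacrimal level was lower than the meibomian level by -2.19 ± 0.18 on the log2 scale (SE, adjusted p = 2.07e-08 in limma), where 67.9% of tested probes were called, 38.7% higher and 29.2% lower in the lacrimal gland. Ttr was highest in the submandibular gland, at 0.974, then 0.341 in the lacrimal and 0.0526 in the meibomian gland. Its lacrimal level was higher than its meibomian level by 1.17 ± 0.17 (SE, adjusted p = 9.79e-06 in limma). That call ended with quantile normalization over all arrays (0.11, adjusted p = 0.573), and the percentiles on the arrays overlapped, at 6.02 to 27.0 in the lacrimal and 5.81 to 12.1 in the meibomian gland. A difference between the glands' arrays at their low end and a difference in Ttr cannot be told apart here.

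Over all 6 groups Ptgds ran from testosterone submandibular (40.9) through placebo meibomian (4.00), testosterone meibomian (3.94), testosterone lacrimal (1.32) and placebo lacrimal (0.743) to placebo submandibular (0.475). Of these neighbours only the 2 meibomian groups overlapped. Ttr ran from testosterone submandibular (8.90) through testosterone lacrimal (2.77), placebo submandibular (0.974), placebo lacrimal (0.341) and testosterone meibomian (0.131) to placebo meibomian (0.0526). No neighbours overlapped in intensity. By percentile on the array, however, placebo lacrimal pools (6.02 to 27.0) overlapped testosterone meibomian pools (13.3 to 23.1). The place of lacrimal above meibomian Ttr at this low end therefore rests on intensity alone. The submandibular places in both orders rest on the values that chose the genes.

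**Figure D3:**
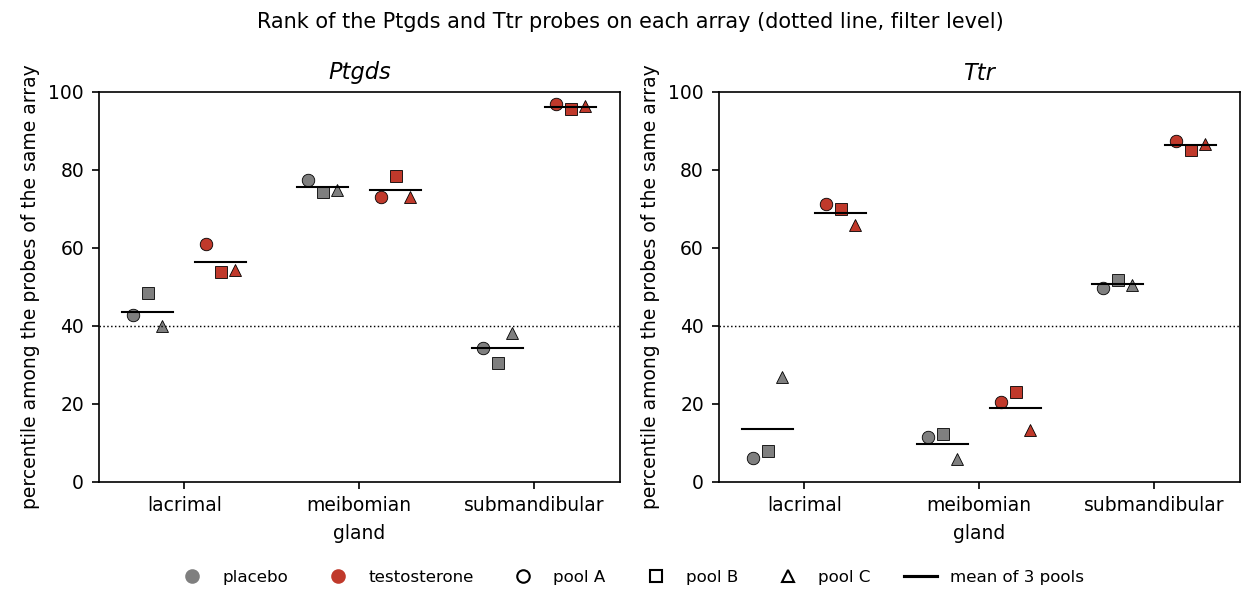
Percentile of the Ptgds and Ttr probes among all probes of the same array, for each of 18 pools by gland; grey is placebo, red testosterone, the shape gives the pool, the solid line the mean of 3 pools and the dotted line the 40th percentile used as filter level. Ptgds keeps to percentiles 72.9 to 78.4 in all meibomian pools, and Ttr keeps below percentile 23.2 there while reaching 65.8 to 71.2 in testosterone lacrimal pools.

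Probes with the most similar pattern over the 18 arrays were ranked by Pearson correlation of log2 values among 6438 tested probes with 1 symbol and no missing value. The points share glands and treatments, so these are descriptions. Most like Ptgds were Klrg2 (r = 0.947), Smim3 (0.934), the lipid hydrolase Abhd12 (0.933), the adaptor Grb14 (0.933) and the potassium channel subunit Kcne3 (0.923). Klrg2 went from a mean of 0.344 to 5.80 in the submandibular gland (3.54 ± 0.25 on the log2 scale, SE), and its differences in the other glands were -0.07 and -0.09. Most like Ttr were the transcription factor Mesp2 (r = 0.962), the growth factor Tgfb3 (0.961), Ndrg3 (0.958), the antiproliferative gene Btg3 (0.955) and the salivary peptide Smr2 (0.951). Mesp2 went from 11.5 to 50.3 in the submandibular gland and from 4.61 to 49.3 in the lacrimal gland. The correlation between Ptgds and Ttr themselves was 0.442 over these 18 arrays, which include the submandibular values that chose them, and -0.566 over the 12 lacrimal and meibomian arrays. Ttr thus stood at positions 610 and 3955 among the 6438 probes ranked by likeness to Ptgds.

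**Figure D4:**
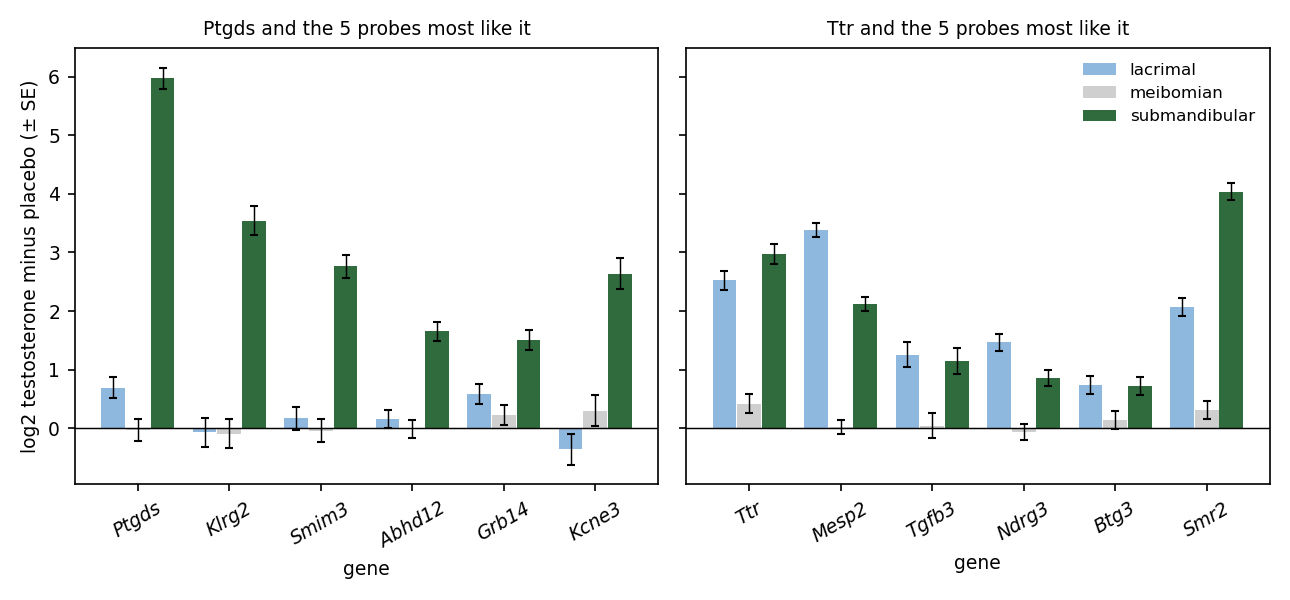
Log2 difference, testosterone minus placebo, in the lacrimal (blue), meibomian (grey) and submandibular gland (green) for Ptgds, Ttr and the 5 probes most correlated with each over 18 arrays; bars start at 0 and whiskers are ± 1 SE over 3 pools per group. The 5 probes beside Ptgds are high in the submandibular gland alone or mostly there, and the 5 beside Ttr are high in both the lacrimal and the submandibular gland.

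Over the 12 lacrimal and meibomian arrays, which did not choose the genes, Ptgds was most like the phospholipase-like gene Plbd1 (r = 0.984), the epithelial gene Sfn (0.980), the kinase Csnk1e (0.979), Tmpo (0.979) and Lmo1 (0.978). All of these were higher in the meibomian than in the lacrimal placebo group, Sfn at 109 against 2.43. Ttr was there most like the organic anion exporter Abcc2 (r = 0.993), the milk protein Csn3 (0.993), Ceacam10 (0.992), Pdha2 (0.992) and Fxyd7 (0.991). Abcc2 went from 0.496 to 7.16 with testosterone in the lacrimal gland, but measured 0.246 and 0.245 in the submandibular gland, where Ttr differed 9.13-fold.

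Other genes of the pathways in which Ptgds and Ttr act were taken from lists chosen with earlier results of these data known. Of 21 genes of prostaglandin synthesis, breakdown and transport 17 were in the table and 12 passed the filter. In the submandibular gland 2 of these 12 were called higher and 1 lower, where 8.54% and 5.25% of all tested probes were, and the list's median difference was 0.17 against 0.01 over all probes. Ptgr1, a reductase that inactivates prostaglandins and leukotrienes, rose there from 2.76 ± 0.283 to 16.1 ± 3.98 (SD, n = 3; 2.44 ± 0.19, SE, adjusted p = 2.06e-07 in limma). Hpgd, the dehydrogenase that begins prostaglandin breakdown, rose by 0.56 (adjusted p = 0.0410 in limma), and Ptgr2 fell by 0.63 (adjusted p = 0.0401 in limma). The calls of Hpgd and Ptgr2 did not hold when the submandibular arrays were fitted by themselves, and their adjusted p reached 0.123 and 0.232 over the alternatives.

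In the lacrimal gland 2 of the 12 were called higher and 3 lower (13.3% and 14.8% of all probes), with a median of -0.19 against -0.07. Ptges, the prostaglandin E synthase, rose from 0.713 ± 0.111 to 1.22 ± 0.0904 (SD, n = 3; 0.66 ± 0.14, SE, adjusted p = 0.00248 in limma), and the phospholipase Pla2g6 rose by 0.74. Akr1c18, an enzyme of progesterone and prostaglandin reduction, fell from 52.2 ± 3.85 to 30.1 ± 4.92 (SD, n = 3; -0.80 ± 0.17, SE, adjusted p = 0.00157 in limma). The reductase Cbr1 fell by 0.57 and Pla2g4a, the phospholipase that frees arachidonic acid, fell by 0.61. The calls of Pla2g6 and Pla2g4a ended when lacrimal arrays were fitted by themselves, and adjusted p reached 0.0526 and 0.133 over the alternatives, the latter without testosterone pool C. That of Cbr1 ended without testosterone pool A (adjusted p = 0.0763 in limma). In the meibomian gland 0 of 12 were called (0.59% of all probes).

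The enzyme that shares Ptgds's reaction and the receptors of its product were low or not called. Hpgds, the hematopoietic prostaglandin D synthase, measured 0.209 ± 0.0966 and 0.333 ± 0.130 in placebo and testosterone submandibular pools (SD, n = 3, adjusted p = 0.467 in limma). Ptgs2, which makes the substrate of Ptgds, was not tested because it was dim, with 0.246 ± 0.0331 and 0.255 ± 0.0847 in the same groups (SD, n = 3). Of 10 prostanoid receptor genes, all in the table and counting the nuclear receptor Pparg, 6 were tested and 0 were called in any gland. Ptgdr2, a prostaglandin D2 receptor of leukocytes, measured 0.940 to 1.30 and 1.11 to 1.28 in placebo and testosterone submandibular pools. Ptgdr, the other receptor of that product, was dim, at 0.237 ± 0.0858 and 0.388 ± 0.179 there (SD, n = 3).

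Ptgds belongs to the lipocalins, which with the fatty acid binding proteins form the calycin superfamily. Of 37 other listed genes of it 19 were in the table and 13 were tested. In the submandibular gland 0 of the 13 were called higher and 3 lower, where 8.54% and 5.25% of all tested probes were, so the count of higher calls lies near the background. The list's median was -0.20 against 0.01. Fabp5, an epidermal fatty acid binding protein, fell from 24.6 ± 1.71 to 7.87 ± 0.179 (SD, n = 3; -1.62 ± 0.14, SE, adjusted p = 8.87e-07 in limma). Rbp4, the plasma retinol carrier that binds transthyretin, measured 3.15 ± 1.59 and 1.33 ± 0.521 (SD, n = 3, adjusted p = 0.0486 in limma), and the adipocyte carrier Fabp4 60.1 ± 27.3 and 32.7 ± 4.93 (SD, n = 3, adjusted p = 0.0476 in limma). The pools of both overlapped, and neither call held when these arrays were fitted by themselves (adjusted p = 0.219 and 0.216 in limma). Rbp4 kept its call under only 8 of 31 alternatives and Fabp4 under 11. In the lacrimal gland 2 were called higher, Lcn4 by 0.69 and the bile acid carrier Fabp6 by 0.86, and 2 lower, Lcn3 by -0.56 and Apod by -0.57, with a list median of -0.002 (all probes -0.07, of which 13.3% were called higher and 14.8% lower). The call of Apod ended without placebo pool B or C or testosterone pool C (adjusted p up to 0.0888 in limma). In the meibomian gland 0 of 13 were called (0.59% of all probes).

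Retinoid genes were read because Ttr carries retinol through Rbp4. Of 39 listed genes 25 were in the table and 16 were tested. The lacrimal counts were 2 higher and 2 lower, with a median of -0.03, and these shares lie near the 13.3% and 14.8% over all tested probes. The alcohol dehydrogenase Adh1 fell from 148 ± 27.7 to 10.7 ± 2.03 (SD, n = 3; -3.77 ± 0.19, SE) and Adh7, which oxidises retinol, from 2.16 ± 0.513 to 0.325 ± 0.0458 (SD, n = 3; -2.21 ± 0.14, SE). Bco1, which cleaves carotene into retinal, rose from 0.296 ± 0.123 to 2.07 ± 0.317 (SD, n = 3; 2.28 ± 0.27, SE), and the retinal carrier Rlbp1 from 2.25 ± 0.494 to 8.66 ± 0.855 (SD, n = 3; 1.88 ± 0.22, SE). All of these calls held under every alternative run, with adjusted p of at most 0.000291 in limma.

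In the submandibular gland 4 of the 16 retinoid probes were called higher and 1, Rbp4, lower, where 8.54% and 5.25% of all tested probes were, with a median of -0.04 against 0.01. The aldehyde dehydrogenases Aldh1a7, Aldh1a1 and Aldh1a3 rose by 1.37, 0.75 and 0.58, and Aldh1a7 went from 2.73 ± 0.154 to 7.43 ± 1.49 (SD, n = 3, adjusted p = 0.000419 in limma). Adh7 rose by 0.48 from 0.186 ± 0.0190 to 0.328 ± 0.0168 (SD, n = 3), near the low end of these arrays. The calls of Aldh1a1, Aldh1a3 and Adh7 ended under several alternatives, at adjusted p up to 0.244, 0.187 and 0.233. That of Rbp4 was kept under only 8 of 31 alternatives. In the meibomian gland, where 0.59% of all tested probes were called, 1 of 16 was, the retinal reductase Rdh11 (7.65 ± 0.104 and 12.8 ± 2.20, SD, n = 3, 0.72 on the log2 scale). Its call ended with quantile normalization and without placebo pool A, B or C or testosterone pool A or B, at adjusted p up to 0.145. Stra6, the cell surface receptor of Rbp4, was dim in all glands, at 0.335 ± 0.0986 in placebo submandibular pools (SD, n = 3).

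Of 18 thyroid hormone genes 8 were in the table, and 8 probes of 7 genes were tested. In the lacrimal gland 2 of the 8 were called higher and 1 lower, where 13.3% and 14.8% of all tested probes were, with a median of 0.29 against -0.07. Thrsp, a thyroid hormone responsive gene of lipid synthesis, rose from 0.645 ± 0.0106 to 3.24 ± 1.65 (SD, n = 3; 1.95 ± 0.34, SE). Slc7a8, an amino acid transporter that also moves thyroid hormone, rose by 1.15 among lacrimal pools. Among submandibular pools, where 13.8% of all tested probes were called, it rose by 1.08 and was the only probe of the list called. Its adjusted p was 0.0522 when those arrays were fitted by themselves. Crym, a cytosolic thyroid hormone binding protein, measured 0.536 ± 0.155 and 0.292 ± 0.0869 in the lacrimal gland (SD, n = 3), overlapped between groups, and kept its call under 13 of 31 alternatives. The thyroxine carrier Slco1c1 rose by 0.81 in the meibomian gland, from 2.75 ± 0.221 to 5.03 ± 1.15 (SD, n = 3), and its call ended without placebo pool A, B or C or testosterone pool A or B, at adjusted p up to 0.157. The deiodinase Dio1 was dim in all glands. The submandibular median of the list was -0.36.

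**Figure D5:**
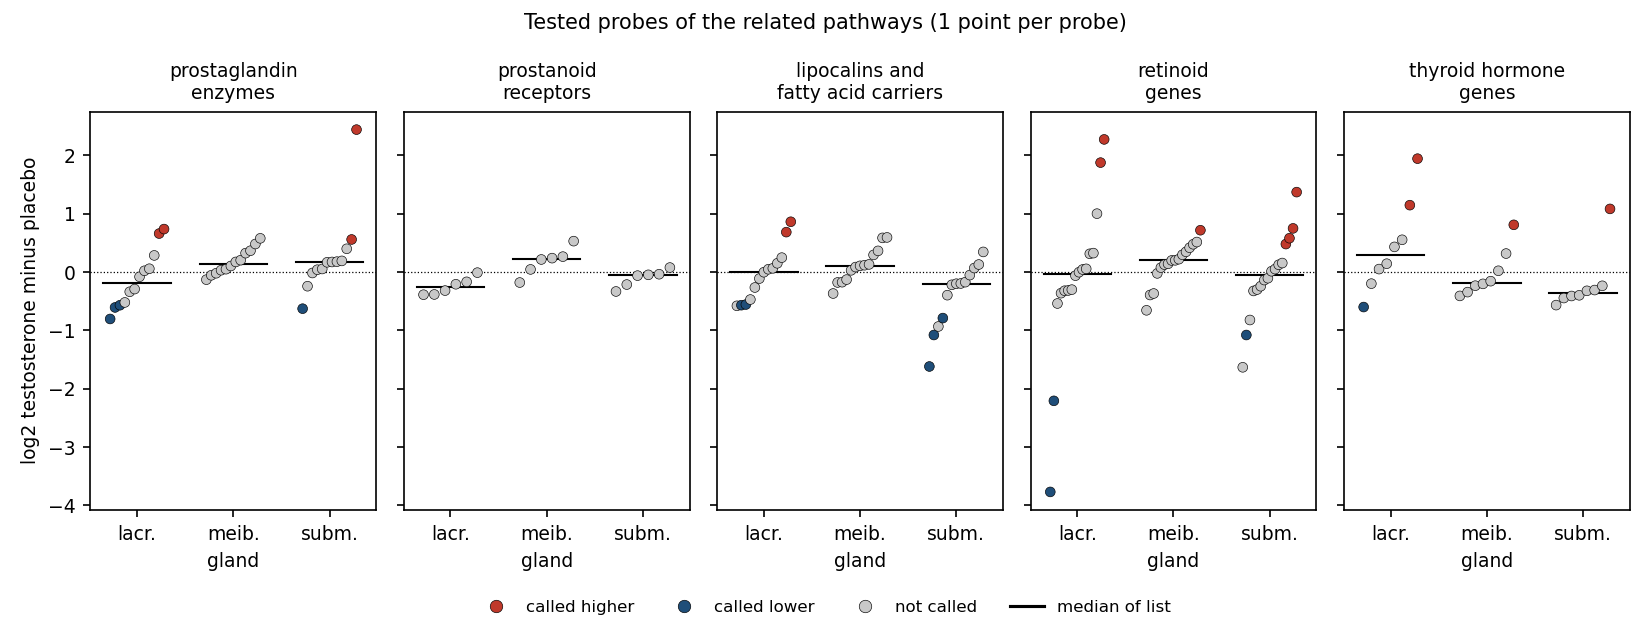
Log2 difference, testosterone minus placebo, of each tested probe of 5 gene lists in the lacrimal, meibomian and submandibular gland; red points were called higher and blue lower in limma at an adjusted p of 0.05, grey points were not called, and lines are list medians. No list median passes 0.4 in size, and single probes such as Ptgr1 (2.44, submandibular) and Adh1 (-3.77, lacrimal) stand apart.

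In these bulk pools fewer cells of a type and less RNA per cell cannot be told apart, so markers of other known sources of Ptgds and Ttr were read beside them. Of 20 hepatocyte markers 17 were in the table. Their summed intensity was 6.79 to 7.46 in placebo and 11.2 to 13.0 in testosterone lacrimal pools, and 12.6 to 16.1 and 16.5 to 18.05 in submandibular pools. In the lacrimal gland 3 of 7 tested hepatocyte probes were called higher, the fibrinogen chain Fgg, Serpina1d and Ahsg, and 0 lower (13.3% and 14.8% of all tested probes). Fgg went from 0.302 ± 0.126 to 3.27 ± 0.480 (SD, n = 3). The plasma apolipoprotein Apoa1 lay between 0.234 and 0.323 in placebo lacrimal pools and between 0.133 and 0.229 in testosterone ones, and the other fibrinogen chains Fga and Fgb were dim. The part of hepatocyte-type expression in the Ttr result was not tested.

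Of 13 choroid plexus and leptomeninges markers 5 were in the table, and their sum was 25.0 to 28.1 in placebo and 14.5 to 17.6 in testosterone submandibular pools, most of it from Folr1 (25.4 ± 1.66 and 14.8 ± 1.79, SD, n = 3). In lacrimal pools it was 8.80 to 10.9 and 10.6 to 17.2, with the folate receptor Folr1 called higher (7.54 ± 1.31 and 11.5 ± 3.06, SD, n = 3) although its pools overlapped. Of 3 tested probes of this list, 1 was called higher and 0 lower there (13.3% and 14.8% of all tested probes). In the submandibular gland 0 were called higher and 1 lower (8.54% and 5.25% of all tested probes). Islet and neuroendocrine markers (10 of 16 in the table) summed to 4.75 to 5.58 and 4.69 to 5.25 in submandibular pools. In lacrimal pools they summed to 16.0 to 21.0 and 17.8 to 19.4. Male genital tract markers (6 of 13) summed to 2.65 to 5.12 and 3.46 to 3.93 in submandibular pools, and pigment cell markers (6 of 9) to 8.97 to 15.6 and 7.77 to 8.38, against 3.56 to 4.02 and 5.25 to 5.93 in lacrimal pools. The part of these cells in the lacrimal Ttr result was not tested. Of 9 tested fibroblast markers (9 of 10 in the table) 5 were called higher in the submandibular gland with testosterone and 0 lower (8.54% and 5.25% of all tested probes), and the sum went from between 53.3 and 59.7 to between 76.2 and 82.0. In the lacrimal gland 0 fibroblast probes were called higher and 2 lower (13.3% and 14.8% of all tested probes). Their sum there went from between 36.7 and 45.6 to between 26.2 and 30.5. The part of fibroblasts in the submandibular values was not tested.

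Adipocyte markers (4 of 8) summed to 74.5 to 172 and 64.2 to 69.3 in submandibular pools, leukocyte markers (7 of 10) to 28.8 to 44.6 and 41.2 to 46.1, and striated muscle markers (8 of 10) to 3.59 to 9.06 and 2.52 to 3.14. Of their tested probes, 2 of 4 adipocyte and 2 of 8 muscle probes were called lower there and 0 higher. For leukocytes 1 of 6 was called higher and 0 lower (8.54% higher and 5.25% lower over all tested probes). Muscle markers stood at 162 to 205 in placebo meibomian pools. Granular tubule markers (4 of 15) summed to 685 to 781 and 810 to 899 in submandibular pools. Of 3 tested there, Egf (2.95 ± 0.20, SE) and Smr2 (4.04 ± 0.15, SE) were called higher, where 8.54% of all tested probes were. Klk1b5, which makes up most of the sum, measured 687 ± 49.7 and 509 ± 54.4 (SD, n = 3) and was not called. The part of these tubule cells in the submandibular values of Ptgds and Ttr was not tested. Lacrimal pools had sums of 4.79 to 22.3 (placebo) and 13.9 to 24.1 (testosterone). The tubule kallikrein Klk1b5 was uneven there, at 14.7 in placebo pool A and 10.7 in testosterone pool C against 0.316 to 0.648 in the other lacrimal pools. Ttr was 0.271 and 2.35 in these pools, the lowest of its group each time. Egf was 3.49 ± 1.35 with placebo and 3.42 ± 0.254 with testosterone in the lacrimal gland (SD, n = 3, adjusted p = 0.916 in limma), while it was 273 ± 15.2 in testosterone submandibular pools (SD, n = 3). The part of tubule cells in the lacrimal values of Ttr was not tested.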

How the data were processed

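The deposited table holds 1-colour array intensity of 10500 probes in 18 pools, with array medians near 1. The sources used here do not state any background subtraction or scaling. The code -1 (37 to 118 probes per array) was read as no value and other negatives (lowest -0.128) as 0. Values became log2(intensity + 0.174), the offset being the 10th percentile of positive values. Probes with at least 2 values per group and above the 40th percentile of 3 or more arrays were tested (7463; 146 lacked values, 2891 were dim). Platform annotation named 1 gene for 8983 probes, several for 1 and none for 1516. A RefSeq table (GRCm38.p6) changed 0 symbols.

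A single limma model (limma 3.58.1, R 4.3.3) held all arrays, with group means, 12 residual degrees of freedom, eBayes with a trend, and Benjamini-Hochberg adjustment over all tested probes, threshold 0.05. The fit was tested on simulated data. The members and lists were chosen with earlier results of these data known. Named genes were every called member of 5 pathway lists (up to 6 per gland), genes with a direct link, and the 5 probes most correlated with each member. Alternatives covered the samples fitted, offset, filter, normalization, no-value code, variance model, array weights, replicate block and each array left out. Shared pool letters gave no pairing (residual r from -0.11 to 0.14 over 9 pairs within glands). Protein sequences were not used here.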

Additional observations from a re-analysis of the deposited data

Results flagged for a closer look

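The testosterone effect on Ttr differed between glands in a test of the difference itself: the lacrimal effect was higher than the meibomian effect by 2.11 on the log2 scale (adjusted p = 6.58e-06 in limma). All 3 testosterone pools lay above all 3 placebo pools in both glands, but meibomian Ttr lay near the low end of the arrays.

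Adh7 differed in opposite directions, at -2.21 among lacrimal pools and 0.48 among submandibular pools, with no overlap between pools in either. The difference between these glands was not tested, and the submandibular values lie near the low end of those arrays. The submandibular Adh7 call was kept under 20 of 31 alternatives, the lacrimal call under all 31. Groups of 3 pools were too small to test for single outlying pools.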

How the results depend on the processing

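Ttr kept its lacrimal call under all 31 alternatives (1.74 to 2.89 on the log2 scale), and its lacrimal minus meibomian difference under all 30 (1.60 to 2.60). Ptgds kept its lower placebo level in lacrimal than in meibomian pools under all 30 (-2.37 to -1.70). The lacrimal Ptgds call was lost with array weights only (0.56). Array weights also turned the meibomian Ptgds difference to 0.18 and called that of Ttr (0.56), and leaving out single arrays moved the former between -0.20 and 0.066. The Ptgds difference between lacrimal and meibomian effects was called with quantile normalization (0.85 over all arrays, 0.79 by gland), ran from 0.58 to 0.89 without single arrays, and was lowest with array weights (0.37, adjusted p = 0.263). The Ttr placebo difference between these glands fell to 0.11 with quantile normalization over all arrays. It was 1.98 with the offset 4-fold smaller and 0.47 with it 4-fold larger, and was called in both. With the offset 4-fold smaller and larger, the submandibular differences were 6.29 and 5.13 for Ptgds and 3.13 and 2.51 for Ttr. With the replicate block all Ptgds and Ttr results kept their calls (lacrimal adjusted p = 0.0204 and 7.05e-06). The block ended 8 calls of pathway genes: Apod (lacrimal), Rdh11 and Slco1c1 (meibomian), and Hpgd, Ptgr2, Rbp4, Fabp4 and Adh7 (submandibular).

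Of all tested probes, 44 were called in the meibomian gland. That count was 246 in the fit of this gland alone, 77 with the larger offset, 28 with quantile normalization over all arrays, 2661 with array weights, 0 with the replicate block (limma, 1058 at an unadjusted p under 0.05 without the block) and 0 to 170 without single arrays: of the meibomian pools, omitting placebo A or testosterone B left 0 (limma), placebo B 2, placebo C 4, testosterone A 3 and testosterone C 170, and omitting submandibular placebo A left 85. The submandibular count of 1029 was 409 in that gland's own fit and 612 without meibomian arrays, a setting chosen after seeing the data. The count for the lacrimal minus meibomian effect (1315) was 2322 with array weights. The causes were not tested. Of 29 calls of pathway genes 14 held under every alternative, 15 were lost in at least 1 and 0 reversed.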
